A study of Mus musculus with 8 samples.

Results

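The small noncoding RNA genes of induced germinal center B cells (iGBs) were examined here, 131 of the 39017 genes in the table. Their members were selected on a symbol that names a small nucleolar RNA, a small Cajal body RNA, a spliceosomal or U7 small nuclear RNA, 7SK, the RNA of the signal recognition particle, RNase P, RNase MRP or telomerase, and on a measured level, a mean of at least 10 normalized counts over the 8 libraries, which is also the level at which 16250 genes were tested. Of 179 rows with such a symbol, 48 lay below that level and 31 of these were at 0 in all libraries. The members were 70 box C/D and 38 box H/ACA small nucleolar RNAs (snoRNAs), 7 small Cajal body RNAs (scaRNAs), 10 small nuclear RNAs (snRNAs), 3 RNAs of RNase P, RNase MRP and telomerase, 2 signal recognition particle (SRP) RNAs and 7SK. No Y RNA reached the level. Just inside it were Snord92 at a mean of 10.1 and Scarna17 at 11.98 normalized counts, and just outside were Snord89 at 9.20 and Snord42a at 8.36.

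iGBs are splenic B cells expanded on 40LB cells, a fibroblast feeder line made to express CD40L and BAFF, with IL-4 at 1 ng per mL. Cultures came from Prmt5 F/F Cγ1-cre mice (Prmt5-null) and Cγ1-cre mice (control), C57BL6/J throughout, with 4 independent biological samples of each genotype. They were harvested at day 4 after plating, separated from the feeder cells by elutriation and sequenced after removal of ribosomal RNA. The controls carry the same Cre and intact Prmt5. Cre is expressed from the Cγ1 locus, which B cells transcribe on activation, so any cell that has not yet transcribed it keeps Prmt5. Ages of the mice are not used here. Replicates are named by the number in the labels. The libraries held from 36731721 to 50366174 reads on genes. Prmt5 had 1538 ± 436 normalized counts in Prmt5-null and 11774 ± 908 in control libraries (SD, n = 4 each). The B cell markers Cd79a, Cd79b, Ms4a1, Pax5 and Ptprc summed to at least 96110 normalized counts in every library. Of these 5 markers Cd79a, a signalling chain of the B cell receptor, was called lower, with 8114 ± 831 normalized counts in Prmt5-null and 13526 ± 923 in control libraries (SD, n = 4 each, limma adjusted p = 0.000327). The summed level of 8 fibroblast markers ran from 5349 to 9385 normalized counts in Prmt5-null and from 3348 to 6004 in control libraries, with 2 of the 8 called higher, while 4 T cell markers summed to at most 11.8. The 2 were the collagen genes Col1a2 and Col3a1, with log2 fold changes of 0.72 and 1.02 (adjusted p = 0.0213 and 0.0136, limma). All 8 fibroblast markers had a positive log2 fold change, from 0.42 to 1.02. Col1a1 was not called (adjusted p = 0.0717, limma), though its values did not overlap between the genotypes. The summed ranges overlapped, and the part of feeder RNA in the differences below was not tested. These are bulk cultures, in which fewer cells of a type and less RNA per cell cannot be told apart.

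Small noncoding RNAs work as ribonucleoproteins. Box C/D snoRNAs guide ribose methylation and box H/ACA snoRNAs guide pseudouridylation of ribosomal RNA, and a few of each kind act in cutting the ribosomal precursor. Most mammalian snoRNAs have no promoter of their own and are trimmed out of the spliced introns of host genes, whereas snRNAs, U3, U8, 7SK and the RNAs of RNase P, RNase MRP and telomerase are transcribed from their own promoters. Prmt5 methylates arginines of Sm proteins, which form the ring on spliceosomal snRNAs.

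The sequences of the RNAs on which the comparison turned are given first, from the GENCODE M21 transcripts of GRCm38, in which all 131 members had a gene. In the snRNAs the capitals mark the Sm-type site, the stretch on which the Sm ring assembles, as ATTTTT up to the next G, or TTTGTCTAG in U7 (found in 0.506% of 1383 annotated snRNA transcripts). Rnu12 lies at chr15:83149644-83149794 on the plus strand, Rnu11 at chr4:132270080-132270213 on the minus strand and Rnu7 at chr6:124741225-124741286 on the minus strand.
Rnu12: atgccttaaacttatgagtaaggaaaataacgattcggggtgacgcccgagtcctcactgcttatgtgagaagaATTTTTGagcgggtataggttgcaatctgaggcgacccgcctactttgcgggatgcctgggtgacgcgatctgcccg
Rnu11: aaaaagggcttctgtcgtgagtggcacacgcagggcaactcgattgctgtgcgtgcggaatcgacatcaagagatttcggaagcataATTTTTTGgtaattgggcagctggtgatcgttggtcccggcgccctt
Rnu7: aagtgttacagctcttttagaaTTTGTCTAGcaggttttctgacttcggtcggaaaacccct

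In the box C/D RNAs the capitals mark the first TGATGA, the C box, and the last CTGA, the D box. They are shown because 3 of them were called and Snord14c is the near copy of Snord14d. Snord118 lies at chr11:69073427-69073561, Snord104 at chr11:106500993-106501062, and Snord14c and Snord14d at chr9:40803583-40803668 and chr9:40803995-40804080, all on the plus strand.
Snord118: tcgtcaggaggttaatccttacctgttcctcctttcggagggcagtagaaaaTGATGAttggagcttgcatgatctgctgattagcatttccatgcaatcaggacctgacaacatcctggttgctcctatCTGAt
Snord104: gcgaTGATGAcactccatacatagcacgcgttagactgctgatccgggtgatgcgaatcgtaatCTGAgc
Snord14c: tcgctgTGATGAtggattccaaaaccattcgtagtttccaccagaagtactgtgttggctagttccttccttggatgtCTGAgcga
Snord14d: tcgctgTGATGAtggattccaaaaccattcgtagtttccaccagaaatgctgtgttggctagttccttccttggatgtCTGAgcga

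In the box H/ACA RNAs the capitals mark the ACA that ends 3 bases before the 3′ end. Of the 6 called RNAs of this class 5 are shown, and the annotated ends of Snora81 and Snora47 do not hold ACA at that place. Snora65 lies at chr2:32963291-32963420 on the plus strand, Snora81 at chr16:23110756-23110933 on the plus strand, Snora34 at chr15:98519716-98519853 on the minus strand, Snora47 at chr13:95330600-95330737 on the plus strand and Snora70 at chrX:74272484-74272620 on the plus strand.
Snora65: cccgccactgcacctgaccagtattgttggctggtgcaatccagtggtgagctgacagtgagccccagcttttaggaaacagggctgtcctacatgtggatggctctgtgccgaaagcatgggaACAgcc
Snora81: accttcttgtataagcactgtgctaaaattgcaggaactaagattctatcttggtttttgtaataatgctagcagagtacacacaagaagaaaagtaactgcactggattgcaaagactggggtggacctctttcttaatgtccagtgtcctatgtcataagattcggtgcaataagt
Snora34: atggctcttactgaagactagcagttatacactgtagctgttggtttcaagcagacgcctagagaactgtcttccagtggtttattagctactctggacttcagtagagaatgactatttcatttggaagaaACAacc
Snora47: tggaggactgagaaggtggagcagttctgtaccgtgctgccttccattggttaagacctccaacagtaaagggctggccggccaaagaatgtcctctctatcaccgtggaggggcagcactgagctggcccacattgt
Snora70: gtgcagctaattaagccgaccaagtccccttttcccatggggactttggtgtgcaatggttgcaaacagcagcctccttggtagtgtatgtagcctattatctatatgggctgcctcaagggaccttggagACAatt

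These letters were searched on the sense strand only, since the products are RNAs. TGATGA before the midpoint together with CTGA in the last 20 bases was found in 42 of the 70 box C/D members (60%), in none of the 38 box H/ACA members and in 20.97% of 1507 annotated snoRNA transcripts. ACA ending 3 bases before the 3′ end was found in 30 of 38 box H/ACA members (78.9%), in none of the box C/D members and in 18.3% of the 1507 transcripts. ATTTTT was found in 5 of 10 snRNA, 2 box C/D and 1 box H/ACA members and in 38.1% of 1383 annotated snRNA transcripts.

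In Prmt5-null iGBs, 6 members were higher and 5 were lower than in control, and 120 were not called. A call required an adjusted p below 0.05 in limma, fitted on log2(normalized count + 1) over all 16250 genes with Benjamini-Hochberg adjustment, and a change of at least 1.5-fold. The 6 that rose were the box H/ACA snoRNAs Snora68, Snora65, Snora34, Snora81 and Snora47 and the box C/D snoRNA Snord104. The 5 that fell were the snRNAs Rnu12 and Rnu7, the U8 gene Snord118, and the host-encoded snoRNAs Snord14d and Snora70. Called members made up 8.40% of the list beside 6.48% of all genes tested, with 4.58% called higher beside 3.49% and 3.82% called lower beside 2.99%, so the count itself is near the background. Values of the genotypes did not overlap in 15 members (11.5%) beside 19.8% of all genes tested. The median log2 fold change (Prmt5-null minus control, here and throughout) was -0.02 over the members and 0.00 over all genes tested.

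**Figure D1:**
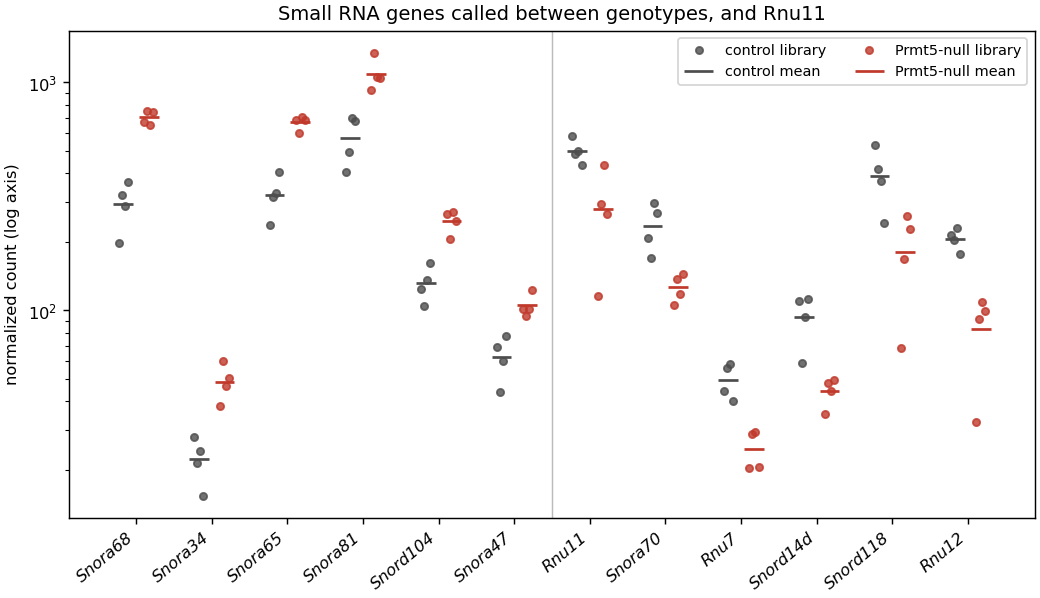
Normalized counts (log axis) of the 11 called small RNA genes and of Rnu11 in the 4 control (grey) and 4 Prmt5-null (red) libraries, with the mean of each genotype as a line. The 6 genes left of the divider sit higher in every Prmt5-null library, and of the genes to the right Rnu11 and Snord118 have ranges that overlap between genotypes.

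Among the snRNAs, the 2 that were called were not the abundant components of the major spliceosome. U12 snRNA, from Rnu12, pairs with the branch site of the rare U12-type introns. Rnu12 had 32.4, 91.9, 109 and 99.0 normalized counts in the Prmt5-null libraries PRMT5-10617, PRMT5-10618, PRMT5-10770 and PRMT5-10771, with 214 in CTRL-10650, 204 in CTRL-10370, 229 in CTRL-10596 and 177 in CTRL-10597 among the controls. The genotypes did not overlap, and PRMT5-10617 was the lowest library. PRMT5-10617 was also the lowest of the 8 libraries for Rnu11, Snord118 and Snord13 below and, by a narrow margin, for Rnu7. Their lower levels thus share a library and are not independent. The log2 fold change was -1.43 (SE 0.32, limma adjusted p = 0.0119), the most negative of all members. Over the fits that left out a library it ran from -1.61 to -1.03. The call held in each, with an adjusted p of up to 0.0408 (limma).

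U11 snRNA, from Rnu11, pairs with the donor site of the same introns in a joint particle with U12. Rnu11 had 116, 292, 436 and 265 normalized counts in the Prmt5-null libraries and 584, 483, 499 and 435 in the control libraries, in the same order of libraries, which holds for all lists of 4 values here. The ranges touched, since PRMT5-10770 at 436.0 lay just above CTRL-10597 at 434.9. Its log2 fold change of -0.99 (SE 0.31) missed the threshold with an adjusted p of 0.0517 (limma), and edgeR and DESeq2 gave 0.0691 and 0.101. Without PRMT5-10770 the change was -1.26 (limma adjusted p = 0.00868) and without PRMT5-10617 it was -0.62 (adjusted p = 0.05004). Without any other library the adjusted p lay between 0.0504 and 0.123 in limma.

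U7 snRNA, from Rnu7, acts in cutting the 3′ ends of replication-dependent histone transcripts and carries a special ring in which Lsm10 and Lsm11 replace a pair of Sm proteins. Rnu7 had 20.4, 28.6, 29.2 and 20.6 normalized counts in the Prmt5-null and 44.2, 56.2, 58.2 and 40.3 in the control libraries, without overlap. The log2 fold change was -0.98 (SE 0.25, limma adjusted p = 0.0206), on few reads in each library. The call was lost in 4 of the 8 fits that left out a library. Rnu7 overlaps an exon of the protein-coding gene Grcc10 on the same strand, so reads of both transcripts may be mixed. Grcc10 had 2391 ± 330 normalized counts in Prmt5-null and 1998 ± 213 in control libraries (SD, n = 4 each) and was not called.

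The other snRNA members gave no call. Rnu2-10, a U2 gene, had a log2 fold change of 0.23 and Rnu5g, a U5 gene, of -0.35. The U1 genes Rnu1b6, Rnu1a1, Rnu1b1 and Rnu1b2 had 0.59, -0.14, -0.27 and -0.50, and their values overlapped between the genotypes. U1, U2, U5 and U6 have many near-identical copies, and since reads were counted only where they mapped to a single place, these levels cover an uncertain part of each RNA. A U6 family copy in Trim12c had a log2 fold change of 0.15.

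Snord118 encodes U8, a capped box C/D RNA needed to cut the precursor of the large ribosomal subunit RNAs. Snord118 had 68.5, 167, 261 and 228 normalized counts in Prmt5-null and 534, 416, 369 and 242 in control libraries. The genotypes overlapped only through PRMT5-10770 and CTRL-10597. The log2 fold change was -1.21 (SE 0.37, limma adjusted p = 0.0469), and the call was lost in 6 of the 8 fits that left out a library, with an adjusted p of up to 0.125. Tmem107, a protein-coding gene that ends just upstream of Snord118 on the same strand, had 145 ± 18.3 and 180 ± 19.1 normalized counts (SD, n = 4 each) and was not called.

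Snord13, a box C/D RNA with its own promoter that directs acetylation of small-subunit ribosomal RNA, had 18.5, 37.8, 32.5 and 42.0 normalized counts in Prmt5-null and 91.6, 59.7, 69.0 and 33.2 in control libraries. It was not called by limma (log2 fold change -0.91, SE 0.34, adjusted p = 0.0993), and the genotypes overlapped through CTRL-10597 and 2 Prmt5-null libraries. The adjusted p was below 0.05 with DESeq2 on the recovered reads (0.0368) and without CTRL-10597 (0.0364, limma), and between 0.0784 and 0.239 in the other alternatives, edgeR among them. Snord13 was named after its values were seen. U3 cuts the ribosomal precursor early, and its gene Rnu3a was not called. Rnu3a had 1065 ± 353 normalized counts in Prmt5-null and 1157 ± 573 in control libraries (SD, n = 4 each, log2 fold change -0.06, limma adjusted p = 0.926). Further U3 copies had log2 fold changes of -0.13 and 0.14 and were not called, on uniquely mapped reads only.

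**Figure D2:**
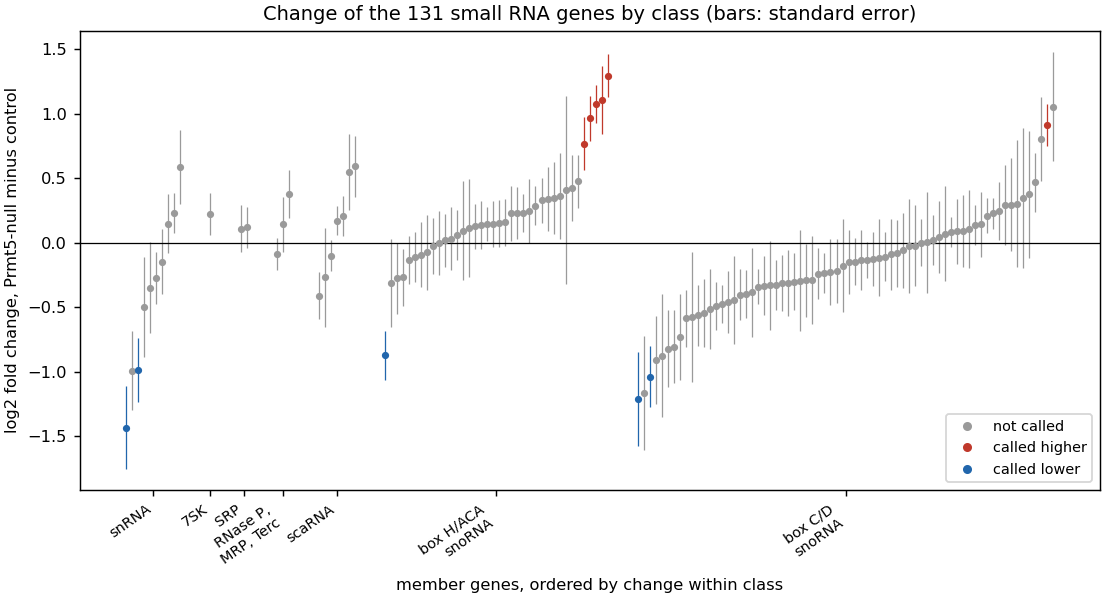
Log2 fold change (Prmt5-null minus control) of the 131 small RNA genes with its standard error, ordered within each class, with members called higher in red, called lower in blue and not called in grey. Of the 38 box H/ACA snoRNAs 28 lie above 0, and of the 70 box C/D snoRNAs 47 lie below 0.

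The 2 main snoRNA classes had medians of opposite sign. Of the 38 box H/ACA snoRNAs, which guide pseudouridylation, 5 were called higher and 1 lower (15.8% called beside 6.48% of all genes tested). In this class 28 had a positive change, and the median log2 fold change was 0.15. Of the 70 box C/D snoRNAs, 1 was called higher and 2 lower (4.29% called). In that class 47 had a negative change, and the median was -0.16. Under the other scalings, tools, filters and left-out libraries the medians stayed between 0.12 and 0.21 for box H/ACA and between -0.25 and -0.10 for box C/D snoRNAs. They carry no test, since the members share hosts and libraries. The 7 scaRNAs, which guide modification of snRNAs in Cajal bodies, had no call and a median of 0.17.

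Snora68 rose most. It had 673, 749, 648 and 739 normalized counts in Prmt5-null and 197, 320, 286 and 365 in control libraries, a log2 fold change of 1.30 (SE 0.17, limma adjusted p = 0.000496). The genotypes did not overlap, and the call held in all 15 alternatives. Snora68 overlaps an exon of a transcript with a retained intron, as do Snora65, Snora81, Snora70 and Snord14d, so reads of such transcripts may be counted on each of them.

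Snora65 had 684, 601, 704 and 685 normalized counts in Prmt5-null and 238, 314, 326 and 406 in control libraries, a log2 fold change of 1.08 (SE 0.15, limma adjusted p = 0.000704). Its host Rpl12, a protein of the large ribosomal subunit, had 0.39 (limma adjusted p = 0.0155), below the 1.5-fold limit. Snora34 had 38.0, 60.2, 46.5 and 50.4 beside 28.0, 21.4, 24.2 and 15.4 normalized counts, a log2 fold change of 1.11 (SE 0.26, limma adjusted p = 0.0158). Snora34 lies in an intron of Kansl2, a subunit of a histone acetyltransferase complex, whose own log2 fold change was 0.15. Snora2b, which overlaps an exon of a Kansl2 transcript with a retained intron, had 0.15 as well and was not called.

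Snora47, in an intron of Zbed3, had 102, 94.9, 102 and 122 normalized counts in Prmt5-null and 68.9, 43.7, 60.0 and 77.0 in control libraries. The log2 fold change was 0.77 (SE 0.21, limma adjusted p = 0.0288), while Zbed3 had -0.32 (adjusted p = 0.153) and was not called. The call for Snora47 was lost in 4 of the 8 fits that left out a library.

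Snord104 was the box C/D RNA that rose. It had 266, 206, 269 and 248 normalized counts in Prmt5-null and 124, 104, 136 and 161 in control libraries, a log2 fold change of 0.92 (SE 0.16, limma adjusted p = 0.00359). The annotation gives it no host gene. The snoRNA Gm22711, which starts a short way downstream on the same strand and was looked up after the call was seen, had a log2 fold change of 0.36 (SE 0.22, limma adjusted p = 0.317).

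Snora70 was the box H/ACA snoRNA that fell. It had 106, 138, 118 and 144 normalized counts in Prmt5-null and 209, 170, 296 and 267 in control libraries, without overlap, a log2 fold change of -0.87 (SE 0.19, limma adjusted p = 0.0103). Its host Rpl10, a large subunit protein, had -0.27 (adjusted p = 0.130, limma).

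Hspa8, which encodes the constitutive heat shock protein Hsc70, carries Snord14c, Snord14d and Snord14e, copies of U14, a box C/D RNA that acts in processing of the small subunit RNA. Snord14d had 35.2, 48.0, 44.4 and 49.5 normalized counts in Prmt5-null and 110, 58.8, 94.1 and 113 in control libraries, a log2 fold change of -1.04 (SE 0.24, limma adjusted p = 0.0142). Snord14e had -0.82 (adjusted p = 0.0902) and Snord14c -0.73 (adjusted p = 0.172, limma), and neither was called. The 3 RNAs share their source, and CTRL-10370 was the lowest control library for each. Snord14c and Snord14d, printed above, are 97.7% identical, so reads that fit both were dropped in counting, and each is 79.6% identical to Snord14e. Hspa8 itself had 92448 ± 13947 and 87884 ± 8733 normalized counts (SD, n = 4 each), a log2 fold change of 0.07.

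Eif4a2, an initiation factor helicase gene, carries 2 members, of which 1 was called. Snora81 had 928, 1341, 1059 and 1048 normalized counts in Prmt5-null and 404, 495, 700 and 674 in control libraries, a log2 fold change of 0.97 (SE 0.17, limma adjusted p = 0.00379). Snord2 had 361, 731, 427 and 481 beside 428, 555, 775 and 737, a log2 fold change of -0.33 (SE 0.23, limma adjusted p = 0.363). Eif4a2 had 23468 ± 5573 and 20569 ± 4264 normalized counts (SD, n = 4 each), a log2 fold change of 0.19. Taken in each library relative to Eif4a2 on the log2 scale, Snora81 stood at -4.41 ± 0.16 in Prmt5-null and -5.19 ± 0.08 in control, and Snord2 at -5.57 ± 0.14 and -5.06 ± 0.09 (SD, n = 4 each). Neither pair of ranges overlapped, in opposite directions.

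The intron of Eif4a2 that holds Snora81, at chr16:23110724-23111125, was also the only intron with a member inside among the 337 deposited retained intron events. The authors kept the events with the strongest evidence of a difference, so a difference there is a description and was not tested here. The authors' inclusion levels, the fraction of transcripts that keep the intron, ran from 0.343 to 0.430 in Prmt5-null and from 0.211 to 0.296 in control libraries when all reads on the intron were used. With reads across the exon and intron junctions alone they ran from 0.226 to 0.332 and from 0.121 to 0.211. The first of these measures can include reads of Snora81 itself, and the second did not overlap between the genotypes either. Of all hosts, 6 had a deposited retained intron event.

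Most members lay inside another gene. Of the 131 members, 110 lay in a longer gene on the same strand, 56 of them in an intron and 54 over an exon, for 41 of them that of a transcript with a retained intron, and 21 had no such host. For 104 members a tested host was compared, which gave 74 hosts, of which 23 encode ribosomal proteins. The host changes ran from -0.55 to 0.59 with a median of 0.11 on the log2 scale. Of the 74 hosts a single one was called, Atg16l1 with Scarna6 (log2 fold change 0.59), beside 6.48% of all genes tested. Scarna6 had 0.60 without a call.

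Set against the host in each library, 16 of the 104 members did not overlap between the genotypes, 5 of them higher and 11 lower relative to the host. That is 15.4% of them, and 19.8% of all genes tested did not overlap in their own values. For the called members, which had been chosen for their change, the difference from the host was 1.09 for Snora47, 0.96 for Snora34, 0.78 for Snora81 and 0.68 for Snora65, and -1.24 for Rnu7, -1.10 for Snord14d and -0.60 for Snora70, on the log2 scale. Where a member overlaps an exon of its host, reads of the host can be counted on the member, and the strand setting of the counting is not given in the sources used here.

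**Figure D3:**
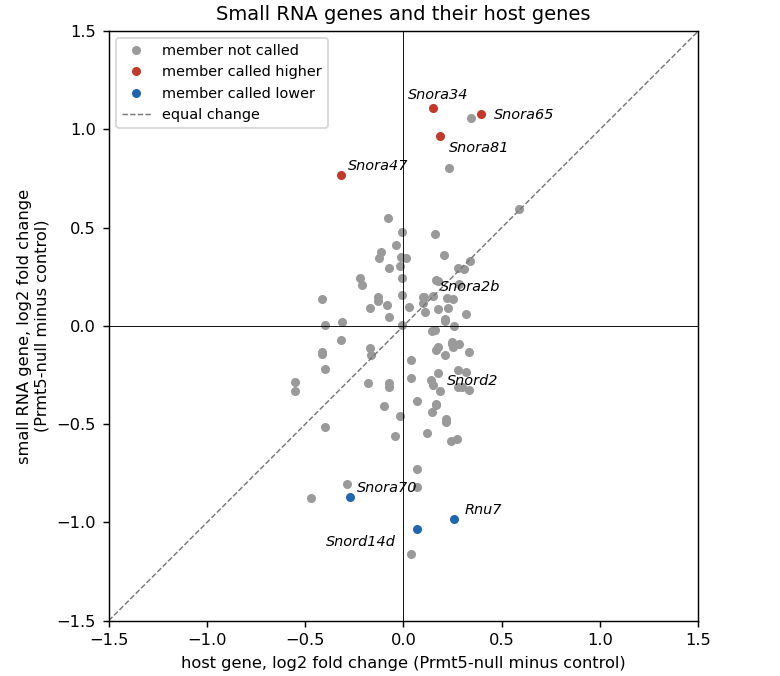
Log2 fold change (Prmt5-null minus control) of 104 small RNA genes against that of the gene that contains each, with members called higher in red, called lower in blue and not called in grey. The called members spread from -1.04 to 1.11 on the vertical axis while all hosts lie between -0.55 and 0.59.

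Of the 22 hosts that carry 2 or more members, 11 had members of both signs, counting changes that were not called, and none had members called in both directions. Snhg12 had 4 of 4 members with a positive change and Hspa8 and 2410006H16Rik had 3 of 3 with a negative change, while Rpl13a had 2 of each sign. The most abundant snoRNAs and scaRNAs were not called. Snora73a and Snora73b, both from Rcc1 and both acting in ribosomal RNA cutting, had log2 fold changes of 0.15 and 0.13, Snora74a had 0.23 and Snord17 had 0.25. The scaRNAs Scarna10, Scarna2 and Scarna13 had 0.21, -0.10 and 0.17.

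The reads on small RNA genes came mostly from the long, mainly RNA polymerase III transcribed members. SRP RNA, the scaffold of the particle that brings secretory proteins to the endoplasmic reticulum, had the highest level, with Rn7s1 (listed under the family name Metazoa_SRP) at 892018, 851094, 1309500 and 892707 normalized counts in Prmt5-null and 1038910, 956978, 844614 and 774716 in control libraries. PRMT5-10770 stood above all others, and the other Prmt5-null libraries lay within the control range. Rn7s2, the second SRP gene, had 55554 ± 13699 and 50406 ± 7169 (SD, n = 4 each).

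Rn7sk encodes 7SK, which holds the elongation kinase P-TEFb inactive. Rn7sk had 363998, 362765, 551614 and 389165 normalized counts in Prmt5-null and 387124, 403706, 319216 and 304967 in control libraries (log2 fold change 0.22, SE 0.16, limma adjusted p = 0.396). Rpph1, the RNA of RNase P, which trims transfer RNA precursors, had 373274 ± 135450 and 327773 ± 58310 (SD, n = 4 each). Rmrp, the RNA of RNase MRP, which cuts the ribosomal precursor, had 100909 ± 26334 and 77074 ± 17057. Terc, the template of telomerase, had 2122 ± 344 and 2247 ± 310. None of these was called, and PRMT5-10770 was the highest Prmt5-null library for each.

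Per kilobase, the mean level over all libraries was 3150230 normalized counts for Rn7s1, 1164110 for Rn7sk, 1098820 for Rpph1 and 328382 for Rmrp. Rn7sk and Rpph1 did not differ beyond their spread. Rn7s2 followed at 176600, Snora73a stood at 42039 and Scarna10 at 28432, while Rnu11 stood at 2901, Rnu12 at 958 and Rnu7 at 600 per kilobase. The median over the members was 900 per kilobase. Only reads that mapped to a single place were counted. Where an RNA has similar copies, as with Rn7s1 and Rn7s2, its level may be understated.

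Together the members took from 3.44% to 5.80% of all normalized counts in a library, and the 3 most abundant made up 89.6% of that sum. The share was 4.07%, 3.84%, 5.80% and 4.07% in Prmt5-null and 4.45%, 4.33%, 3.70% and 3.44% in control libraries. The genotypes overlapped, and the highest value was that of PRMT5-10770. The mean difference in the summed level was 0.15 on the log2 scale with all libraries and -0.01 without PRMT5-10770. The 10 snRNA members summed to 906 to 1352 normalized counts in Prmt5-null and 1465 to 1690 in control libraries, a sum in which Rnu11 and Rnu12 have a large part.

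**Figure D4:**
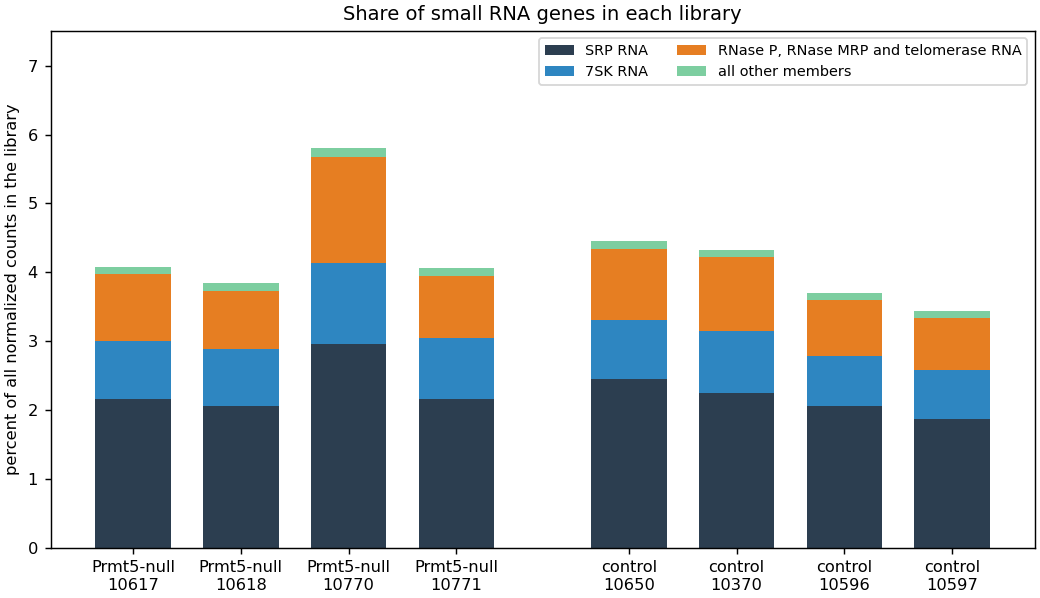
Percent of all normalized counts in each library that fell on SRP RNA, 7SK RNA, the RNAs of RNase P, RNase MRP and telomerase, and all other members, as stacked bars from 0. PRMT5-10770 reaches 5.80%, and the other 7 libraries lie between 3.44% and 4.45%.

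Genes for the proteins that bind, process or transcribe these RNAs were mostly not called. Of 68 tested genes of this kind, 1 was called higher, 1 lower and 66 were not called (2.94% called beside 6.48% of all genes tested), with a median log2 fold change of 0.02. Zfp473, a zinc finger protein of the U7 histone processing machinery, had 194 ± 21.8 normalized counts in Prmt5-null and 327 ± 66.1 in control libraries (SD, n = 4 each), a log2 fold change of -0.74 (SE 0.16, limma adjusted p = 0.0108). The U7 ring proteins Lsm10 and Lsm11 had -0.20 and 0.28 and were not called. Snapc4, a subunit of the complex that starts transcription at snRNA promoters, rose from 2020 ± 312 to 3189 ± 558 normalized counts (log2 fold change 0.65, SE 0.14, limma adjusted p = 0.00832). The other subunits went both ways and were not called, with 0.21 for Snapc1, 0.26 for Snapc2, -0.21 for Snapc3 and -0.37 for Snapc5. Snapc5 passed the p threshold (adjusted p = 0.0407, limma) and fell short of 1.5-fold.

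Among the proteins that were not called, the changes were largest for Cdk9, the kinase of P-TEFb, at -0.58, Nop56, a core protein of box C/D particles, at -0.55, and Tert, the telomerase catalytic subunit, at 0.44 on the log2 scale. Cdk9 (adjusted p = 0.000694) and Nop56 (adjusted p = 0.000282, limma) passed the p threshold and fell short of 1.5-fold. Nop56 is also the host of Snord57 and Snord110, which had -0.29 and -0.33 and were not called. The listed proteins of the U12-type particle ran from -0.06 for Snrnp35 to 0.29 for Zmat5, and none was called. Zmat5 was higher in Prmt5-null libraries without overlap (adjusted p = 0.0535, limma), and Rnpc3 had 0.10 (adjusted p = 0.749, limma).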

How the data were processed

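RNA-seq of iGBs at day 4 was used, with 4 libraries per genotype, each from an independent biological sample. The authors extracted total RNA with a column kit, removed ribosomal RNA, prepared stranded libraries, and per the labels trimmed reads with Trimmomatic 0.32, aligned them to GRCm38 (mm10) with STAR 2.3.0e and counted unique reads on exons with featureCounts 1.4.4. They deposited a normalized signal, the count divided by the DESeq2 1.14.1 size factor of the library. All deposited values (100%) came out as whole reads, from 36731721 to 50366174 per library. The tolerance was 0.001 of a read and widened in proportion to the count at high counts, so for Rn7s1 the check could not fail. Column extraction, fragment size and trimming can under-sample RNAs as short as these, and reads on a member cannot be told apart from reads on a longer transcript that contains it. The strand setting of the counting and the experiment each library came from are not given in the sources used here. The deposited splicing tables give each genotype's inclusion levels as 4 unlabelled fractions. Only retained introns were used, and the authors' p-values and fold changes were not.

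Genotypes were compared by limma (version 3.58.1 under R 4.3.3, with a trend in eBayes) after log2 transformation of the normalized count plus a pseudocount of 1. The fit took the 16250 genes whose mean was 10 or more, and fold changes of low genes are understated on this scale. edgeR 4.0.16 and DESeq2 1.42.0 on the recovered reads, pseudocounts of 0.5 and 5, a mean above 50, no filter, no fold limit, scaling by the members and leaving out each library were alternatives. The script was tested on simulated data. With 4 against 4 libraries the smallest exact permutation p is 0.0286. Hosts and coordinates came from GENCODE M21, a host being a longer gene on the same strand. Identities came from global alignments in Biopython 1.88 (Python 3.11.15).

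The members, lists and tests were chosen with earlier results of these data known. Named were every called member, members with a mouse gene name among snRNAs, 7SK, SRP, RNase P, RNase MRP and telomerase RNAs, the 3 most abundant of each snoRNA class and of the scaRNAs, their hosts, called partner proteins and the 3 largest changes among the others. Members, hosts and partner proteins outside this rule (Snord13, Snord14c, Snord14e, Snord2, Snora2b, Scarna6, Snord57, Snord110, Lsm10, Lsm11, Rnpc3, Snapc1, Snapc2, Snapc3, Snapc5, Snrnp35, Zmat5 and neighbouring genes) were named after their values were seen. Rnu3a, U3 and Rnu73b were counted as box C/D snoRNAs. Some genes are not reported here.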

Additional observations from a re-analysis of the deposited data

Results flagged for a closer look

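Among 33 named members and their summed level, each genotype's 4 libraries were searched for a library far from the other 3, by a gap above Dixon's 95 percent critical value. Of 68 groups, 6 met it, where chance gives about 3.4. In 5 of them the library was PRMT5-10770, so these flags share a source. Its Rn7s1 level was 1309500 normalized counts beside 851094 to 892707 in the other Prmt5-null libraries. Its Rn7sk level was 551614 beside 362765 to 389165, and its Rpph1 level 575183 beside 289650 to 326056. Scarna13 stood at 5993 beside 4290 to 4573. The summed level of the members was 2715770 beside 1676000 to 1778190 normalized counts. The other case was Rnu5g in CTRL-10597, at 297 normalized counts beside 107 to 116 in the other control libraries. The cause was not tested.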

How the results depend on the processing

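No paired analysis was possible because the genotypes share no replicate numbers and no label ties a library to an experiment. All 11 called members kept their direction in every alternative in which they were fitted. Snora68, Snora65, Snora81, Snord104, Snora70, Rnu12 and Snord14d were called in all of these, and Snora34 in all but the fit without PRMT5-10771 (adjusted p = 0.0522, limma). Snord118 was not called by DESeq2 (adjusted p = 0.0649), after scaling by the members (0.0646, limma) or in 6 fits that left out a library, all but those without PRMT5-10770 or CTRL-10597. Rnu7 (0.0551) and Snora47 (0.0541, limma) were not called without the filter, in which more genes were tested, or without PRMT5-10617, PRMT5-10771, CTRL-10370 or CTRL-10596. Leaving out each library gave 4 to 6 members called higher and 3 to 6 called lower. The number called lower was 3 without PRMT5-10617, without PRMT5-10771 or without CTRL-10596. Of all 16250 genes, 916, 795 and 856 were called in these fits, beside 1053 in the main fit. Over all fits that left out a library the calls ran from 795 to 1173 genes. Both edgeR and limma called 11 members, the same genes, and DESeq2 called 13, of which 10 were shared, adding Snord13, Snord82 and Snord14e. Among all genes fitted, limma called 1053 and edgeR 1091 of 16250, and DESeq2 called 1274 of 16233. Of the 68 partner proteins tested, 10 were called with no fold limit, beside 2249 of all 16250 genes tested, so this count is near the background. With each library left out 1 to 3 partner proteins were called, 1 without CTRL-10370. The median of the members ran from -0.10 to 0.04 over the alternatives and was above 0 after scaling by the members and without CTRL-10597. The summed level ran from -0.01 to 0.23 with each library left out and was 0.23 without the 3 most abundant members. Members under about 50 normalized counts, such as Rnu7 and Snora34, rest on few reads, which limits the precision.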
